A study of Mus musculus with 1 sample.

Results

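The 6 genes described here are the cystatins Cst9, Cst12, Cst3 and Cstb and the beta-defensins Defb19 and Defb36, read by symbol from a mouse testis library that listed 27998 genes, of which 18722 had at least 1 UMI (a unique molecular identifier, standing for 1 captured transcript). All 6 passed the minimum of 100 UMIs set for a comparison. They were chosen by measured values, since an earlier look at these UMI counts had placed several of them among the highest genes of Sertoli cells. Their level in Sertoli cells over other cells is therefore given as a description without any test.

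The library was wild type (Zscan2+/+), of strain C57BL/6 at postnatal day 8, and was built with Chromium v2 chemistry from testis cells that had been enriched for THY1+ spermatogonia with magnetic beads. Some unselected cells had been added back, and 3 mice were pooled in equal cell numbers, so the shares of cell types follow from this mixture and there is no replicate. The Zscan2-KO library was not analysed here. The matrix held 970 barcodes with 11358045 UMIs. After filters 920 cells were kept, with 2655 to 44915 UMIs each, and 4 barcodes called as doublets were among those removed.

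Cystatins inhibit cysteine proteases of the papain family, which include the lysosomal cathepsins. Cstb is the intracellular type, Cst3 is the secreted type found in most tissues, and Cst9 and Cst12 belong to a branch of the family known from the male reproductive tract. Beta-defensins are small cationic secreted peptides with paired cysteines, known for antimicrobial activity at epithelia and for their many copies in the epididymis and testis. Sertoli cells are the somatic cells of the seminiferous tubule that surround and nourish germ cells.

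Coding sequences from the GENCODE M21 annotation are shown because they set the members apart by family branch. The inhibitory site of classical cystatins reads glutamine, any residue, valine, any residue, glycine. It was found in frame in Cst3 and in Cstb and not in Cst9 or Cst12. Capitals in the next 3 lines mark the site codons of Cst3 and Cstb, and in Cst9 the codons that aligned with them. The window runs from codon 73 to 82 in Cst3, 44 to 53 in Cstb and 72 to 81 in Cst9.
Cst3: cgtaagCAGctcGTGgctGGAgtgaactat
Cstb: aagagaCAGataGTGgctGGCaccaacctc
Cst9: agggagAAGgtaAATtttCCAaccgtgtat
None of the 3 site residues was kept in Cst9, and in Cst12 at least 1 of the site positions fell in an alignment gap, so no window is shown. Both beta-defensins had 6 cysteine codons in the same spacing, with 6, 3, 9, 5 and 0 codons between neighbours. The end of that pattern is shown from codon 48 to 55 in Defb19 and from 46 to 53 in Defb36, with cysteine codons in capitals.
Defb19: TGCagaactttccagatgTGCTGC
Defb36: TGCacaaacgggaagatgTGTTGC
Over aligned residues the 2 defensins were 32.8% identical, Cst9 and Cst12 33.6%, and Cst9 and Cst3 30.7%. Of the words of 30 bases in the members' transcripts, 0 occurred in a transcript of another annotated gene.

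All but Cstb lie on chromosome 2 of GRCm38, the assembly also named mm10. Cst12 (ENSMUSG00000027443) spans 148789361 to 148793546 on the plus strand, Cst9 (ENSMUSG00000027445) 148835147 to 148838738 on the plus strand, and Cst3 (ENSMUSG00000027447) 148871722 to 148875692 on the minus strand. Defb19 (ENSMUSG00000050645) spans 152576086 to 152580312 on the minus strand and Defb36 (ENSMUSG00000044863) 152604327 to 152612729 on the plus strand. Cstb (ENSMUSG00000005054) lies on chromosome 10, from 78425669 to 78427622. Of the 6, 1 is overlapped by another annotated gene, which is Defb36 with the processed pseudogene Gm14163 on the same strand.

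Clustering placed 255 cells in 3 Sertoli-like clusters, with a median of 8343 UMIs per cell. The genes of both families, taken by symbol, had been left out of the variable genes, so they did not shape the clusters directly. The label came from a list of 10 Sertoli markers set against the lists of other classes. Marker levels therefore describe these cells and do not check the name. Of the 10 Sertoli markers, 8 were at 216 to 2153 UMIs per 1000000 UMIs (CPM) in Sertoli-like cells, with Dhh the lowest and Clu the highest. Fshr was at 19.2 CPM and Rhox5 at 4.36 CPM. The germ cell genes Ddx4 and Dazl were at 1.74 and 16.6 CPM there, against 134 and 792 CPM in the 324 germ-like cells. Of the remaining kept cells, 186 were named stromal-like and 94 peritubular myoid-like, while 35 carried macrophage markers and 26 were named T cell-like. The last cluster also held the smooth muscle gene Acta2 at 1690 CPM, so its name is weak.

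Cst3 and Cstb went against the label "Sertoli", since neither was higher in the Sertoli-like clusters than in the other kept cells. The summed UMIs of all 6 made up 0.915% of the UMIs of Sertoli-like cells and 0.1% of those of the other cells. Cst9, Cst12, Defb19 and Defb36 were 35.8 to 99.2 times as high in Sertoli-like as in the other kept cells. Thus 4 of 6 members lay at least 1 log2 unit higher and 0 of 6 at least 1 unit lower. Among the 9073 genes with at least 100 UMIs these shares were 16.3% and 21.1%, and nothing is read from the contrast because it chose the members.

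**Figure D1:**
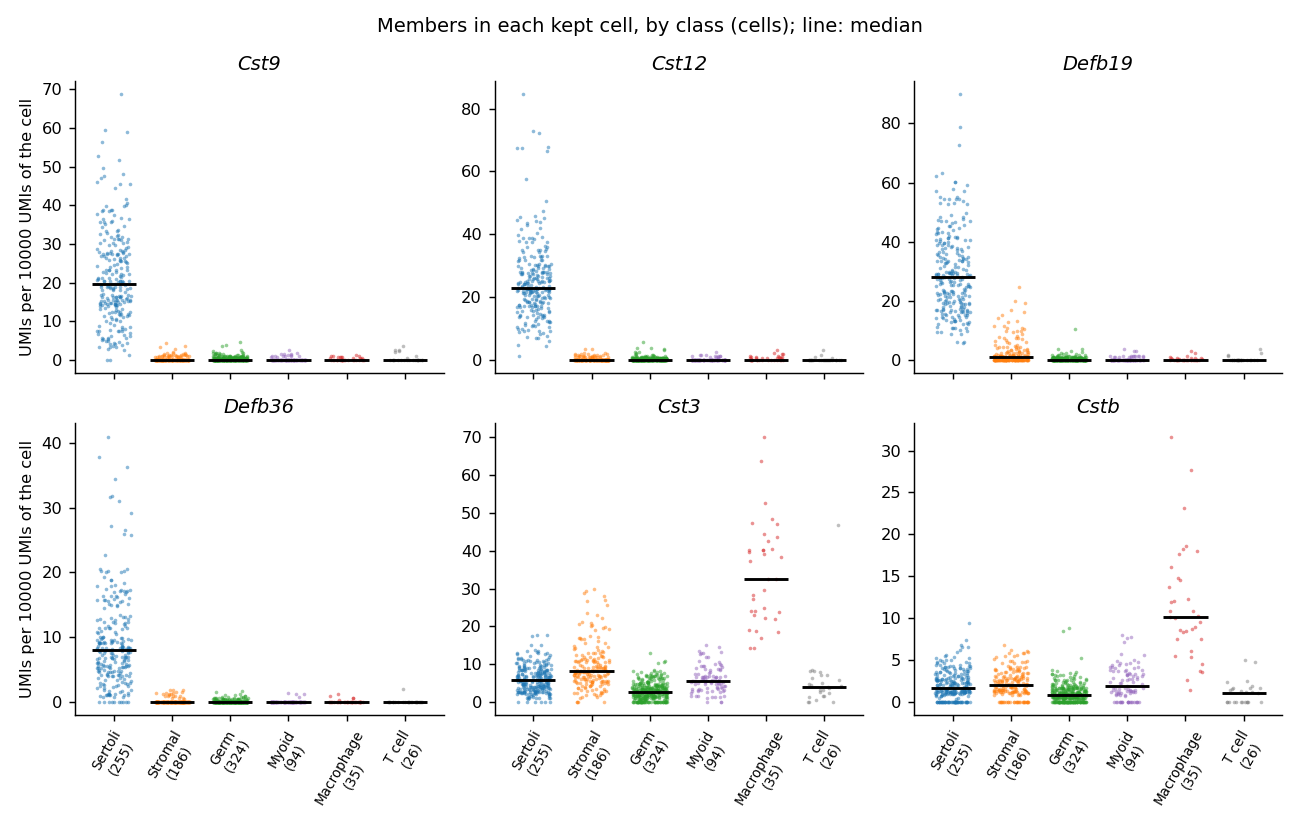
Each point is a kept cell, with the UMIs of the member per 10000 UMIs of that cell on the y axis, the cell class on the x axis (number of cells in brackets) and a black line at the median. Cst9, Cst12, Defb19 and Defb36 stand high in the 255 Sertoli-like cells, Defb19 also spreads upward in stromal-like cells, and Cst3 and Cstb are highest in the 35 macrophage-like cells.

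Defb19 was the most abundant of the 6 in Sertoli-like cells. The lowest Sertoli-like cell held 5 UMIs, the median cell 22 and the highest 110, and every one of the 255 had at least 1. Summed, Defb19 was at 2937 CPM (exact 95% Poisson interval 2868 to 3008), rank 42 of all genes by UMIs in these cells. Each UMI marks a captured 3′ end, so levels were not divided by gene length. All such intervals cover counting error within this library only. In the other kept cells Defb19 was at 82.2 CPM, which makes Sertoli-like cells 35.8-fold higher (33.1 to 38.7). Of the 255 Sertoli-like cells, 150 stood above the highest other cell, a stromal-like one, which was fewer than for the other Sertoli-high members. Other measures of overlap gave another order. At or above the 10th percentile of Sertoli-like cells were 7 other cells, as for Defb36, against 0 for Cst9 and Cst12. At or above the lowest Sertoli-like cell were 30 other cells, against 36 for Cst12. For Cst9 and Defb36, whose lowest Sertoli-like cell had no UMI, all 665 were.

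Cst12 was next. Per Sertoli-like cell it ran from 1 UMI through a median of 19 to 87, and no cell was at 0. Its level was 2418 CPM (2354 to 2482) against 24.4 CPM elsewhere, a 99.2-fold ratio (86.4 to 114). The separation was close to complete, since 252 of 255 Sertoli-like cells stood above the highest of the 665 other cells.

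Cst9, also called testatin, ran from 0 through 17 to 82 UMIs per Sertoli-like cell. Only 2 of the 255 cells had none. The level was 2078 CPM (2019 to 2138) against 27.4 CPM in other cells, 75.9-fold higher (66.6 to 86.8). Of the Sertoli-like cells, 240 stood above every other cell.

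Defb36 ran from 0 through 7 to 46 UMIs per Sertoli-like cell, with 10 cells at 0. It was at 909 CPM (871 to 949) in Sertoli-like cells and 10.1 CPM in the others, a 90.1-fold ratio (72.7 to 113). At this lower level 225 of 255 Sertoli-like cells still exceeded the highest other cell. These 4 genes held 90.5% (Defb19) to 96.4% (Cst12) of all their UMIs within the Sertoli-like cells, although those cells gave 2295655 of the 10914002 UMIs of kept cells. The ratio intervals of Cst12, Defb36 and Cst9 overlapped, that of Cst9 with Cst12 only narrowly, so the order of these genes is not resolved. In place of clusters, Sertoli cells were also taken by UMIs of Sertoli markers with no UMI of Ddx4 or Dazl. The log2 ratios then fell from 6.25 to 3.91 for Cst9, from 6.63 to 3.98 for Cst12, from 5.16 to 3.63 for Defb19 and from 6.49 to 4.12 for Defb36. Of the 255 Sertoli-like cells 217 met this rule, which by construction counts the remaining ones with the others.

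Cst3, the secreted inhibitor found in most tissues, ran from 0 through 5 to 23 UMIs per Sertoli-like cell and stood at 613 CPM (581 to 646). In the other kept cells together it was at 652 CPM, a log2 ratio of -0.09 (-0.18 to -0.01). This turned to 0.21 (0.13 to 0.29) with Sertoli cells taken by the same marker rule, without a UMI of Ddx4 or Dazl. The order of the classes was led by macrophage-like cells with 3242 CPM (3088 to 3401), where the lowest cell had 14, the median cell 43 and the highest 102 UMIs. Stromal-like cells followed with 973 CPM (926 to 1022). Peritubular myoid-like cells (639 CPM, 583 to 699), Sertoli-like cells and T cell-like cells (594 CPM, 482 to 724) could not be told apart by their intervals. The T cell-like level rested in part on 1 cell, which held 35 of the 98 UMIs of that class, where the median cell had 2.5. Germ-like cells were lowest with 321 CPM (306 to 336), so macrophage-like cells were 5.29-fold (4.92 to 5.68) above Sertoli-like and 10.1-fold (9.45 to 10.8) above germ-like cells.

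Cstb, the intracellular inhibitor, ran from 0 through 2 to 11 UMIs per Sertoli-like cell, and 51 of the cells had none. It was at 194 CPM (176 to 213) there and at 208 CPM in the other kept cells, with a log2 ratio of -0.10 whose interval of -0.26 to 0.05 included 0. Macrophage-like cells again led, with 1277 CPM (1181 to 1378) and 1 to 104 UMIs per cell around a median of 15. They were 6.59-fold (5.83 to 7.45) above Sertoli-like cells. Peritubular myoid-like (227 CPM, 194 to 264), stromal-like (223 CPM, 201 to 247) and Sertoli-like cells had overlapping intervals. T cell-like (127 CPM, 78.8 to 194.5) and germ-like cells (105 CPM, 96.3 to 113) were lowest. The T cell-like interval, from 21 UMIs, also overlapped that of Sertoli-like cells.

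**Figure D2:**
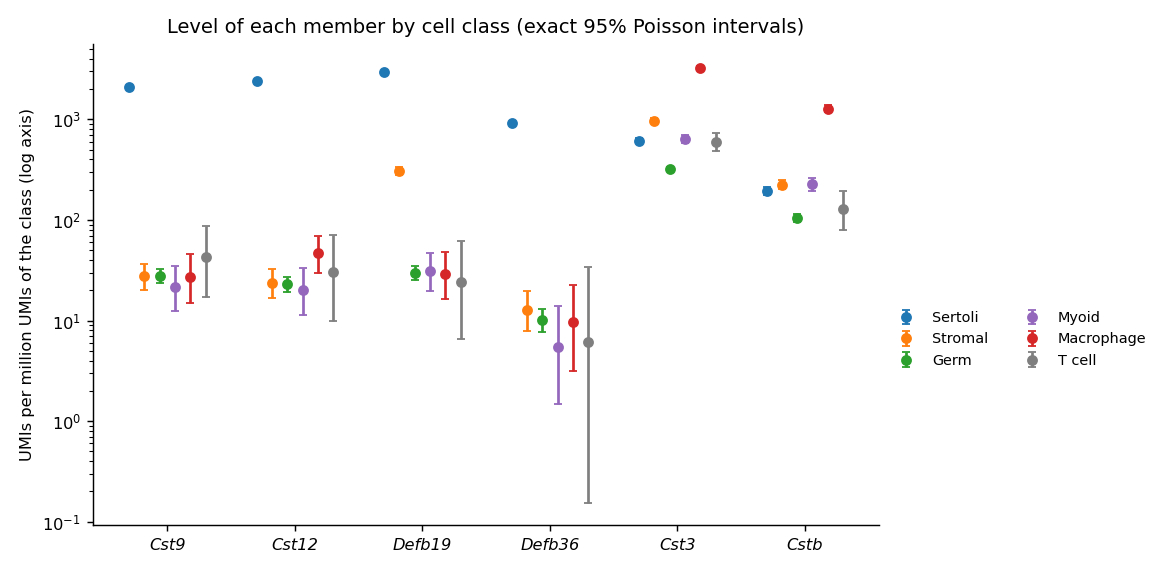
Points give the level of each member in each cell class in CPM on a log axis, and bars are exact 95% Poisson intervals. For Cst9, Cst12 and Defb36 the classes other than Sertoli lie between 5.40 and 46.5 CPM, Defb19 has a stromal point at 305 CPM, and macrophage points lead for Cst3 (3242 CPM) and Cstb (1277 CPM).

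The low counts of the 4 Sertoli-high members in other cells were set against the RNA that leaks from Sertoli cells into other droplets. Free RNA from a single source keeps its genes in the same proportion everywhere, so each level was expressed as a percent of the Sertoli-like level beside the 8 Sertoli markers with at least 100 UMIs. In germ-like cells the markers were at 0.584 to 1.50%, with a median of 1.08%. Cst9 was at 1.33% (1.13 to 1.57), Cst12 at 0.946% (0.787 to 1.13), Defb19 at 1.01% (0.861 to 1.18) and Defb36 at 1.11% (0.835 to 1.45), all within the range of the markers. In peritubular myoid-like cells the 4 members were at 0.594 to 1.06%, within a marker range of 0.279 to 2.96%.

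Macrophage-like cells held Cst12 at 1.92% (1.23 to 2.87) from 24 UMIs, above the highest marker there, Clu with 1.26%, although its interval reached below that value. The other 3 members were at 0.990 to 1.31% in these cells. In T cell-like cells all 4 rested on 1 to 7 UMIs each. Shares of cells with a UMI depended on depth. A UMI of Cst9 was found in 99.2% of Sertoli-like cells (median depth 8343 UMIs) and in 34.9% of germ-like cells (29.7 to 40.3, median depth 18216.5 UMIs). Thinned to 5000 UMIs per cell, which left out 20 Sertoli-like and 45 germ-like cells, the shares were 99.1% and 15.1%. For Cst12 the thinned shares were 99.6% and 9.68%, and for Defb36 90.2% and 4.66%. The source of the germ-like UMIs was not tested, and no empty droplets were analysed here.

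Defb19 in stromal-like cells stood apart from this background. It was at 305 CPM (279 to 333), which is 10.4% (9.47 to 11.4) of its Sertoli-like level, whereas the 8 markers reached 1.01 to 5.86% and Cst9, Cst12 and Defb36 0.983 to 1.41% in the same cells. Of the 186 cells, 102 had a UMI, a share of 54.8% (47.4 to 62.1), at a median depth of 8370.5 UMIs. Thinned to 5000 UMIs the share was 44.2% in stromal-like, 15.4% in germ-like and 14.4% in peritubular myoid-like cells. The lowest stromal-like cell had 0 UMIs, the median cell 1 and the highest 29, and 34 cells had 5 or more.

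The ratios between members were also read. Defb19 over Cst12 was 1.21 (1.17 to 1.26) in Sertoli-like cells, 1.30 (1.02 to 1.65) in germ-like cells and 12.8 (9.27 to 18.3) in stromal-like cells. Cst9 over Cst12 was 1.15 (0.735 to 1.82) in stromal-like cells against 0.859 (0.827 to 0.894) in Sertoli-like cells, so the stromal-like difference lay with Defb19. In germ-like cells Cst9 over Cst12 was 1.21 (0.952 to 1.55), with an interval above that of all Sertoli-like cells together. That ratio differed between the Sertoli-like clusters described below. The germ-like interval overlapped those of cluster 1 (0.924 to 1.03) and cluster 3 (0.877 to 1.04) and lay above that of cluster 2 (0.565 to 0.660). The part of each cluster in the free RNA was not tested. In the 135 stromal-like cells without a UMI of the Sertoli genes Amh and Aard, Defb19 was still at 8.19% (7.24 to 9.23) of the Sertoli-like level. The highest marker in those 135 cells was Sox9 with 2.82% (1.57 to 4.67), followed by Clu with 2.43% and Inha with 2.23%.

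**Figure D3:**
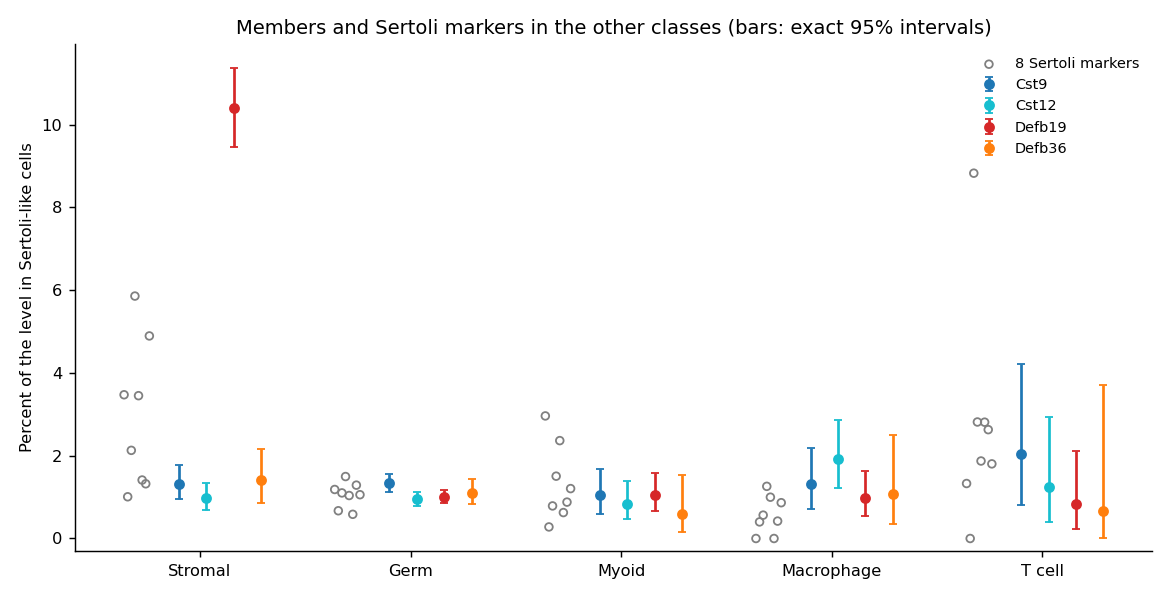
The y axis gives the level in each other class as a percent of the level in Sertoli-like cells, with grey circles for 8 Sertoli markers and coloured points with exact 95% intervals for the 4 Sertoli-high members. Defb19 in stromal-like cells, at 10.4%, is the only member point above 3%, and the highest marker point is Wt1 in T cell-like cells at 8.83%.

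Within the stromal-like cells Defb19 was uneven. At a finer resolution they formed clusters of 125 and 61 cells, and Defb19 was at 433 CPM (394 to 475) in the larger and 77.7 CPM (56.9 to 104) in the smaller, rank 13 of 2084 genes by that ratio. The larger cluster was led by the immediate early genes Junb (188 against 1.69 CPM) and Fos (432 against 11.8 CPM). The cystatin gene Cst8 came next (93.3 against 5.07 CPM), and Fosb was also higher there (99.1 against 10.1 CPM). The Sertoli markers Clu (180 against 30.4 CPM) and Inha (86.7 against 28.7 CPM) were higher there too. Single cells held 103 of the 189 Clu UMIs and 43 of the 91 Inha UMIs of the larger cluster. The shares of cells with a UMI were 22.4% against 23.0% for Clu and 20.8% against 23.0% for Inha, so not higher. The Sertoli marker Aard was higher in the larger cluster in level, with 46.7 CPM (34.5 to 61.7) against 10.1 CPM (3.72 to 22.1). Its share of cells with a UMI was also higher, 32% against 9.84%, with at most 3 UMIs per cell. Amh went the other way, with 2.86 against 8.45 CPM, from 3 and 5 UMIs. The part of the immediate early genes or of Sertoli RNA in the Defb19 difference was not tested. After these values had been seen the cells were also split by the 5 Leydig markers Cyp17a1, Cyp11a1, Star, Hsd3b1 and Insl3, genes of androgen synthesis and Leydig cell signalling. In the 10 cells with at least 5 UMIs of these markers, Defb19 was at 995 CPM (833 to 1180), 33.9% of the Sertoli-like level, with 7, 11 and 24 UMIs in the lowest, median and highest cell. Cst9, Cst12 and Defb36 had 1 UMI each in those 10 cells. They made up 5.38% of the stromal-like cells and held 26.5% of their Defb19 UMIs. All 10 lay in the larger cluster, where they held 133 of its 455 Defb19 UMIs. The part of these cells in the Defb19 difference between the clusters was not tested.

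The remaining 176 stromal-like cells had Defb19 at 244 CPM (220 to 270) or 8.31% (7.46 to 9.23), and the 166 with no UMI of any Leydig marker at 7.91% (7.06 to 8.83). Defb19 was thus higher in the cells with Leydig markers but not confined to them, and the single highest cell, with 29 UMIs, had none of these markers. Cst8, the cystatin gene next to Cst12, moved alongside, with 629 CPM (501 to 778) in the 10 cells, 11.3 CPM in the other 176 and 68.0 CPM in Sertoli-like cells. The part of doublets in these values was not tested.

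Between Sertoli-like cells the 4 Sertoli-high members varied more than counting alone gives. With 235 cells thinned to 5000 UMIs, the variance over the mean, which is 1 for pure counting, was 3.45 for Defb19, 3.33 for Cst9, 3.16 for Cst12 and 2.73 for Defb36. The median of the 744 genes with a mean of at least 1 UMI was 1.18 and the 90th percentile 2.01, so all 4 lay above that percentile. Cst3 was at 1.41 and Cstb at 0.991, the latter no wider than counting. At equal relative spread this measure grows with the mean, and the 744 genes were not matched by level. Thinned means were 4.55 to 14.5 UMIs for the 4 members, 3.18 for Cst3 and 1.03 for Cstb. Relative to its mean Defb36 was the most variable, with a coefficient of variation beyond counting of 0.617. The other 3 were at 0.410 to 0.470, and Cst3 was at 0.359. From the 10th to the 90th percentile of cells, Defb36 went from 1.58 to 17.9 UMIs per 10000, an 11.3-fold range, and Defb19 from 13.9 to 48.2, a 3.46-fold range. These percentiles were taken without thinning and include counting error. That error widens the range of Defb36 more, since its median cell held 7 UMIs against 22 for Defb19.

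Cst9, Cst12 and Defb19 tended to be high in the same cells, and r was lower for Defb36. Over the 255 cells, on log2 UMIs per 10000 plus 1, Pearson's r was 0.48 for Cst9 with Defb19, 0.40 for Cst9 with Cst12 and 0.39 for Cst12 with Defb19. Defb36 had r of -0.03 to 0.06 with these 3. Cst3, which was not Sertoli-high, had r of 0.28 to 0.35 with the same 3 genes, and Cstb of 0.08 to 0.10. The cells share a library, and r is a description without a test. After thinning to 5000 UMIs, Spearman's rho was 0.40, 0.33 and 0.38 for the 3 pairs among Cst9, Cst12 and Defb19. Cst3 had a rho of 0.19 to 0.26 with those genes. Within each of the 3 Sertoli-like clusters r for the 3 pairs was between 0.33 and 0.60. Within clusters Defb36 had r of 0.01 to 0.09 with the 3 genes in cluster 1, 0.17 to 0.19 in cluster 2 and -0.12 to 0.18 in cluster 3.

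The 3 Sertoli-like clusters, of 132, 77 and 46 cells, differed in Defb36 and Cst9. Cluster 1 was led by Serpina5 and Mxd4. Cluster 2 was led by Fstl3, Nr0b1, Cidea and Uchl1, with the ubiquitin hydrolase gene Uchl1 at 192 CPM against 28.2 in cluster 1 and 62.2 in cluster 3. Cluster 3 was led by mitosis genes such as Prc1 and Cenpe. Because the clusters were formed from the same cells, the differences are a description.

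Defb36 was at 691 CPM (643 to 741) in cluster 1, 1283 CPM (1198 to 1372) in cluster 2 and 911 CPM (829 to 999) in cluster 3. The median cells had 6, 9 and 8.5 UMIs, at median depths of 8253, 7904 and 10475 UMIs. Cst9 ran the other way, with 2373 CPM (2284 to 2464), 1573 CPM (1479 to 1672) and 2074 CPM (1949 to 2204). Per cell the ranges overlapped, from 0 to 23 and from 1 to 32 UMIs of Defb36 in clusters 1 and 2.

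Cluster 2 over the other Sertoli-like cells had a log2 ratio of 0.76 (0.63 to 0.89) for Defb36 and of -0.54 (-0.64 to -0.44) for Cst9. In that comparison 2 of the 6 members passed 0.5 log2 units either way, where 12.9% of 3491 genes did. In cluster 1 it was 1 of 6, Defb36 with -0.70 (-0.83 to -0.57), beside 12.1% of genes, and in cluster 3 it was 0 of 6 beside 17.3%. Cst12 stayed between 2170 and 2575 CPM and Defb19 between 2708 and 3154 CPM in the 3 clusters. Genes of the same family thus shifted against each other. Defb36 over Defb19 was 0.232 (0.214 to 0.251), 0.474 (0.436 to 0.514) and 0.289 (0.260 to 0.321) in clusters 1 to 3, and Cst9 over Cst12 was 0.975, 0.611 (0.565 to 0.660) and 0.956.

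**Figure D4:**
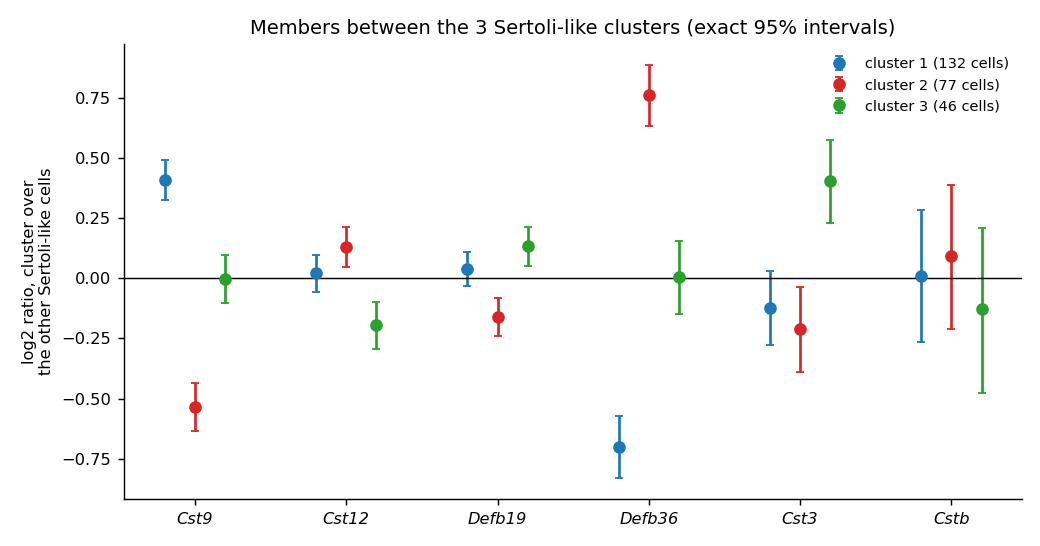
Points give the log2 ratio of each member in 1 Sertoli-like cluster over the other Sertoli-like cells, with exact 95% intervals for counting error. Defb36 is highest in cluster 2 (0.76) and lowest in cluster 1 (-0.70), Cst9 is lowest in cluster 2 (-0.54), and the remaining points lie within 0.5 of 0.

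Sertoli cells still divide at this age, so the members were compared between cells with at least 5 UMIs of 8 cycling genes (57 cells, 45 of them in cluster 3) and cells with none (91 cells), with 107 cells between. Cst12 was lower in the cycling cells, with 2078 CPM (1969 to 2192) against 2719 CPM (2601 to 2840), a log2 ratio of -0.39 (-0.49 to -0.29). Cst9 had a log2 ratio of -0.25 (-0.36 to -0.15). The intervals of the other 4 members included 0, from -0.11 for Cstb to 0.19 for Cst3. The cycling cells were deeper, with a median of 10505 UMIs against 7873, and the part of depth was not tested. Among clusters 1 and 2 alone, which held 12 cycling cells, Cst12 was at -0.58, Cst9 at -0.54 and Defb19 at -0.40 (-0.56 to -0.24). Cluster 2 held 7 of these 12 cells but 26 of the 91 cells with none, and the part of the cluster was not tested.

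The rest of both families, taken by symbol, was nearly silent in this library. The neighbouring gene 8030411F24Rik, whose symbol lies outside the family name, is not in these counts and is given below. Of 17 other listed genes of the cystatin family, 7 had no UMI, 9 had fewer than 100 and 1, Cst8, was tested. It was higher in Sertoli-like than in all other kept cells with a log2 ratio of 2.45 (2.09 to 2.82), which for 1 gene stands beside the 16.3% of all genes. Stromal-like cells, with 101 of its 107 UMIs outside Sertoli-like cells, were at 61.5 CPM, near the 68.0 CPM of Sertoli-like cells. Cst11 had 37 UMIs, 36 of them in Sertoli-like cells, and Ahsg, the fetuin of blood plasma, had 54. Of 42 other listed beta-defensins, 26 had no UMI and 0 reached 100. The highest were Defb42 with 70 of 73 UMIs and Defb45 with 41 of 42 UMIs in Sertoli-like cells.

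The genomic neighbours showed steep steps from gene to gene. In the cystatin cluster of chromosome 2, Cst12 and Cst9 were at 2418 and 2078 CPM in Sertoli-like cells. Between them, Cst8 was at 68.0 CPM and Cst13 had 3 UMIs in these cells. Cstl1 had 0. The gene 8030411F24Rik, which lies beside Cst12 and was picked out after its values were seen because its symbol lies outside the family name, was at 221 CPM (202 to 241) in Sertoli-like cells and 1.39 CPM elsewhere. Like Defb36 it was higher in Sertoli-like cluster 2, with 511 CPM against 104 CPM in clusters 1 and 3. Unlike Defb36 it was not among the genes left out of the variable genes, so it could have helped to form that cluster. In the defensin cluster, Defb45 between Defb19 and Defb36 was at 17.9 CPM. Defb21, the next gene on the other side of Defb19, had no UMI in these cells, for which 3 counts would be 1.31 CPM and the exact upper limit was 1.61 CPM.

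**Figure D5:**
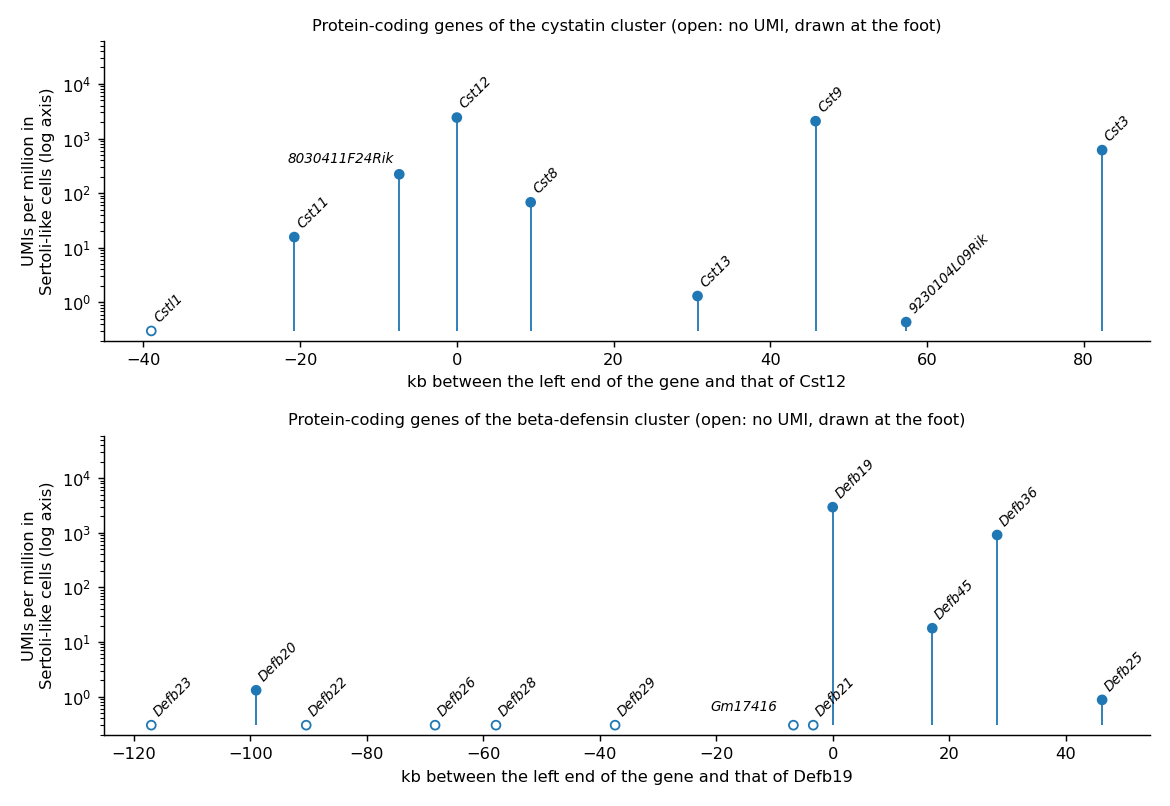
Each stem is a protein-coding gene of the cystatin or beta-defensin cluster on chromosome 2, with its distance in kb from Cst12 or Defb19 on the x axis and its level in Sertoli-like cells in CPM on a log axis. Cst12, Cst9, Cst3, Defb19 and Defb36 stand at 613 to 2937 CPM. Cst8 (68.0 CPM) and Cst13 (1.31 CPM) lie between Cst12 and Cst9, Defb45 (17.9 CPM) between Defb19 and Defb36, and Defb21 (no UMI) on the other side of Defb19.

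The proteases that cystatins inhibit were also read. Of 11 cysteine cathepsins and legumain, 9 were tested, and Ctsl, Ctsh and Ctso were higher and Ctsc, Ctss and Ctsz lower by at least 1 log2 unit in Sertoli-like cells, 3 of 9 in each direction beside 16.3 and 21.1% of all genes. Their median log2 ratio was -0.82, against -0.06 over all genes tested. Ctsl, which encodes the lysosomal protease cathepsin L, was at 1771 CPM in Sertoli-like and 378 CPM in stromal-like cells, with a log2 ratio of 3.32 (3.23 to 3.40). Ctsb, Ctsz and Lgmn, which encode further lysosomal proteases, were led by macrophage-like cells with 3162, 901 and 1661 CPM, the class that also led for Cst3 and Cstb, and Ctss was at 928 CPM there. Ctsb in Sertoli-like cells was at 163 CPM. Of the 2 tested among the other cathepsins, Ctsd, an aspartic protease, had a log2 ratio of -2.29 and Ctsa, a serine carboxypeptidase, of -0.65.

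Of 22 other secreted protease inhibitors, 11 were tested, 4 were higher and 4 lower in Sertoli-like cells, beside the same background, and the median log2 ratio was -0.76. Those higher were Serpina5 (4.58 on the log2 scale), Serpine2 (2.39), Spint2 (1.85) and Timp3 (1.71). Those lower were Serping1 (-6.46), Spint1 (-4.91), the whey acidic protein family gene Wfdc1 (-3.98) and Timp2 (-1.68). By UMIs Serpinh1, a collagen chaperone of the serpin fold, led this list and was highest in peritubular myoid-like cells with 1099 CPM.

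Over the 10 clusters of kept cells, the genes most like each member were taken by Pearson's r of log2(CPM + 1). For Cst9 and for Defb36 these were the same 3, Plppr4, Shbg and Gpr37, with r of 0.992 to 0.994 for Cst9 and 0.988 to 0.990 for Defb36. For Cst12 they were Gstm6, Cst9 and Kctd14 (0.991 to 0.992), and for Defb19 Sh2d4a, Pappa and Gm14226 (0.985 to 0.993). For Cst3 they were Npc2, Sesn1 and Lipa (0.959 to 0.964), and for Cstb Ctsb, Ctsa and Mpeg1 (0.959 to 0.961). The clusters share a library and 3 of the 10 are Sertoli-like, so r is a description without a p.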

How the data were processed

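The authors aligned the reads to mm10 with Cell Ranger 2.1.0 (per the labels) and deposited UMI counts per gene and barcode without normalization. The 6 members and all gene lists were chosen with earlier results of these data known. Cells were kept with at least 500 genes (10 barcodes removed), under 10% mitochondrial UMIs (36 removed) and no scrublet call (scanpy 1.11.5, expected rate 0.01, 4 removed). No barcode was duplicated in the 1 library. Seurat 5.3.0 (R 4.3.3) clustered them with 14 principal components at resolution 0.5, leaving the 2 families out of the variable genes. A cluster took the name of the marker list with the largest mean log-normalized difference from all remaining cells.

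CPM is the sum of UMIs per 1000000 UMIs of a class. Poisson, binomial and conditional binomial intervals are exact, at 95%. With 1 library no p-value was computed. Named genes are the members, the 5 genes with most UMIs of each list, family genes with at least 20 UMIs, the 3 genes most like each member, Uchl1 and the markers. Genes passing the log2 limits in a list, genes that lead a cluster and neighbours on chromosome 2 were named besides, after their values were seen. Interval and naming code was tested on simulated data, and both tests were changed after a first failure. Interval coverage, first required in each group of genes of equal fold and missed in a group, was then judged over all changed genes together. Cells first simulated from summed cluster profiles led to a misnamed germ cluster, so counting noise around each cell's own counts was simulated instead. Coding sequences are from GENCODE M21 transcripts, translated and aligned globally in pairs.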

Additional observations from a re-analysis of the deposited data

How the results depend on the processing

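The log2 ratio of each of the 6 members, Sertoli-like over other kept cells, was recomputed under 15 alternatives, 2 of them added after seeing the data. Of 90 values, 79 stayed within the interval of the reported one. Taking instead the 248 cells with at least 3 UMIs of Sertoli markers and no Ddx4 or Dazl UMI, of which 217 were Sertoli-like, lowered Cst9 to 3.91, Cst12 to 3.98, Defb19 to 3.63 and Defb36 to 4.12 and turned Cst3 to 0.21. By construction this puts the remaining Sertoli-like cells with the others. With a mitochondrial limit of 5%, which left 54 Sertoli-like cells, Cst12 was at 6.89, Cstb at -0.67 and Defb19 at 4.54. Defb19 was at 4.97 from means over cells and at 5.43 without cells holding markers of the other side, and Cst3 at -0.19 without Sertoli-like cluster 3. For these shifts the cause was not tested. At resolution 1.2 all 255 Sertoli-like cells stayed in the same 3 clusters. In Sertoli-like clusters 1 and 2 alone, also added later, Cst3 in cycling over other cells was at -0.30 (-0.67 to 0.05) in place of 0.19 (-0.01 to 0.38). Thinning, which also left out cells below the depth, lowered most shares of cells with a UMI. In T cell-like cells, of which 16 of 26 were left at 5000 UMIs, some shares rose. Cst3 went from 88.5% to 93.75% there and Cstb from 53.8% to 68.75%. Thinning to 5000 UMIs lowered the variance over the mean of Defb19 from 9.51 to 3.45. Unequal totals per class limit precision, most in T cell-like cells. No paired analysis was possible because there is 1 library.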
